A study of Homo sapiens with 12 samples.

Results

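Expression of 10 glycolysis and hypoxia-response genes (SLC2A1, HK2, PFKFB3, PFKFB4, PGK1, LDHA, CA9, VEGFA, NDRG1 and EGLN3) was followed in A549 cells, an established human lung adenocarcinoma line. They were taken by their symbols from the 26334 gene rows of the count files, and all 10 were found and passed the filter on low counts. The cells had been infected with lentivirus carrying a shRNA and selected with puromycin at 1 µg/ml for 4 days, so that every condition shared infection and selection. The shRNA was either a non-target control (control cells) or directed against RNF113A, a spliceosome subunit and ubiquitin ligase (RNF113A-depleted cells), and cells were left untreated or were exposed to Cisplatin, a platinum drug that crosslinks DNA, at 25 µg/ml for 20 h. Each of the 4 conditions had 3 libraries of stranded mRNA, stated to be biological replicates, for 12 in all.

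Glycolysis turns glucose into pyruvate, and lactate dehydrogenase turns pyruvate into lactate. When oxygen is low, prolyl hydroxylases no longer mark the HIF alpha subunits for destruction by VHL, and HIF dimers with ARNT bind short sites near genes for glucose uptake, glycolysis, acid handling and blood vessel growth. Many tumor cells also keep these genes on in normal oxygen. No hypoxia was applied in these samples.

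The core of the HIF binding site is ACGTG or GCGTG, and windows around matches are shown for 7 of the genes because this element is the feature that the hypoxia-response genes are known to share. The promoters were those of RefSeq (GRCh38.p14, 250 bases before to 50 bases after the start), read along the gene, and 8 of the 10 genes matched that table. In each window 1 matched core is in capitals (the HK2 and PGK1 windows hold a GCGTG besides, in lower case), and CACGT in capitals is a match of ACGTG on the opposite strand.
CA9, chr9:35673898-35673926 (+): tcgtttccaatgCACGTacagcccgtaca
PGK1, chrX:78104034-78104062 (+): gcggcgtgccggACGTGacaaacggaagc
LDHA, chr11:18394367-18394395 (+): gactcccagcgcACGTGgagcagtctgcc
LDHA, chr11:18394465-18394493 (+): agcccgactcacACGTGggttcccgcacg
HK2, chr2:74834067-74834095 (+): aatgggcgtgcgCACGTcactgatccgga
PFKFB3, chr10:6202813-6202841 (+): accctcctccccACGTGgaagggggctgg
PFKFB4, chr3:48556953-48556981 (-): tgagttgggcatGCGTGgtcggaggccgg
SLC2A1, chr1:42958827-42958855 (-): tagcaacagcgaGCGTGccggtcgctagt
Both LDHA windows and the PFKFB3 window hold the palindrome CACGTG and so match on both strands. Matches were counted on each strand, so a palindrome counts on both. ACGTG or GCGTG was found 6 times in the first LDHA promoter of the table and 1 time in the second. The HK2 promoters held 3 and 6 matches, those of PFKFB3 held 1 and 2, and that of PGK1 held 4. CA9, PFKFB4 and SLC2A1 had 1 each, while the EGLN3 promoter window held neither. Either core occurred in 48.4% of all 35116 promoters, and ACGTG in 21.4%.

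The libraries held 33859097 to 56071514 read pairs, and 26220526 to 45721152 pairs a library were assigned to the gene strand. RNF113A, the targeted gene, was at 20.3, 19.5 and 19.8 CPM (counts scaled to the size of the library) in the untreated control libraries and at 15.3, 15.8 and 16.8 CPM in the untreated depleted ones, a log2 fold change of -0.31 ± 0.09 (SE, adjusted p = 0.0247). In Cisplatin-treated cells its change on depletion was -0.14 ± 0.09 and did not pass the test (adjusted p = 0.233), so at the level of mRNA the depletion was small. Cisplatin raised RNF113A 1.48-fold in control cells (adjusted p = 0.00021) and 1.67-fold in depleted cells (adjusted p = 2.3e-05). The treated depleted libraries, at 25.8, 24.3 and 29.9 CPM, were thus all above the untreated control libraries. Of 6 epithelial markers KRT8, KRT18 and KRT7 were each at 1113 CPM or more in every library, CDH1 ran from 32.1 to 197 CPM and KRT19 from 0.674 to 5.32 CPM. EPCAM stood at 3.66 to 18.4 CPM in the control libraries and at 40.5 to 97.6 CPM in the depleted ones. Of 4 alveolar type II markers SFTPB and SFTPC stayed at or below 0.106 CPM and NKX2-1 at or below 0.587 CPM, while NAPSA ran from 1.48 to 2.53 CPM in control and from 2.67 to 4.49 CPM in depleted libraries. Of the blood and endothelial markers, PTPRC, CD3E, PECAM1 and CDH5 stayed at or below 0.487 CPM, and CD68 accounted for nearly all of their summed level, which ran from 27.9 to 37.4 CPM in the untreated control libraries and from 57.3 to 74.5 CPM in the depleted, Cisplatin-treated ones. Replicate 2 of the control cells stood apart in both treatments. Untreated, it held 34.9 CPM of the collagen gene COL1A1 against 5.86 and 7.08 CPM in its companions, and 3565 CPM of KRT8 against 6602 and 6349 CPM. KRT7, KRT18 and KRT19 were lowest in it as well. CDH1 (197 CPM against 153 and 137 CPM) and EPCAM (18.4 CPM against 7.02 and 5.57 CPM) were highest in it. The other fibroblast markers, COL1A2, PDGFRB and THY1, stayed at or below 0.474 CPM in every library. The part of these marker differences in the results was not tested, and where leaving out both of its libraries, an alternative chosen after seeing the data, changed a call, the value without them is given beside the result. In bulk RNA, fewer cells with a transcript and less of it in each cell cannot be told apart.

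Cisplatin lowered more of the 10 genes than it raised. In the model of both factors, PFKFB4 rose and CA9 fell by at least 2-fold with an adjusted p under 0.05 (edgeR), which makes 2 of 10 called against 21.5% of the 15352 genes tested. At an adjusted p under 0.05 alone, PFKFB4 and VEGFA rose (2 of 10, against 34.8% of all genes) and PFKFB3, PGK1, LDHA, CA9, NDRG1 and EGLN3 fell (6 of 10, against 32.1%). The median log2 fold change of the 10 genes was -0.44, and that of all genes 0.03. RNF113A depletion left 2 of 10 called, HK2 higher and CA9 lower, against 11.0% of all genes. At an adjusted p under 0.05 alone HK2, VEGFA and EGLN3 rose (3 of 10, against 23.5%) and PFKFB3, PGK1 and CA9 fell (3 of 10, against 24.0%), with a median of -0.02 against -0.00 for all genes. The share of the 10 genes called for Cisplatin was thus close to that of all genes, and the counts over so few genes were not tested as a group.

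**Figure D1:**
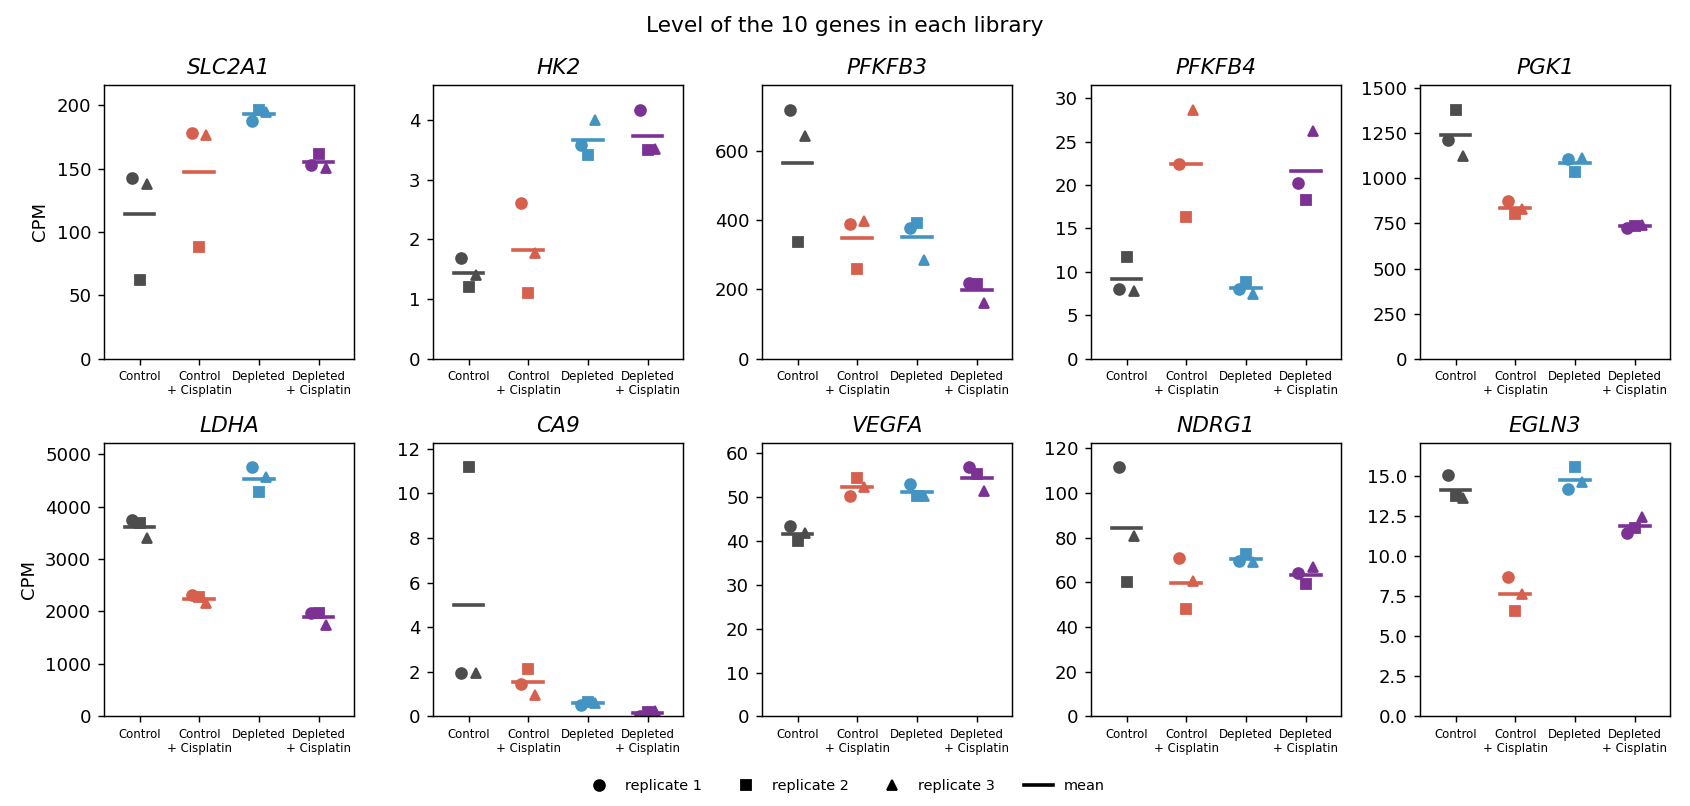
Level of each of the 10 genes in CPM (linear axes from 0) in the 12 libraries by condition, with symbols for the replicate number and lines for the condition mean. PFKFB4 was higher in all Cisplatin-treated libraries, LDHA and PGK1 were lower in them, HK2 was higher in all depleted libraries, and control replicate 2 (squares) was low for SLC2A1, PFKFB3 and NDRG1 and high for CA9.

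SLC2A1, the main glucose transporter of many cells (hg19 chr1:43391052-43424530), stood at 143, 62.1 and 138 CPM in untreated control cells, at 178, 88.0 and 176 CPM in control cells with Cisplatin, at 188, 196 and 194 CPM in untreated depleted cells and at 153, 161 and 150 CPM in depleted cells with Cisplatin. Replicate 2 was the lowest control library in both treatments, and every untreated depleted library was above every untreated control library. With all libraries neither the Cisplatin effect (log2 fold change 0.03 ± 0.22, adjusted p = 0.92) nor the depletion effect (0.41 ± 0.22, adjusted p = 0.133) passed the test. Within control cells Cisplatin gave 0.37 (adjusted p = 0.292) and within depleted cells -0.32 (adjusted p = 0.359), a difference of -0.69 (adjusted p = 0.358). Without both control libraries of replicate 2 these were 0.34 (adjusted p = 0.00042), -0.32 (adjusted p = 8.6e-05) and -0.66 (adjusted p = 0.00034). The estimates hardly moved, and the lower p came with a smaller spread, which the fit estimates over all its libraries together. In the same setting the depletion effect in untreated cells went from 0.76 (adjusted p = 0.07) to 0.46 (adjusted p = 2.4e-05), and in treated cells from 0.07 (adjusted p = 0.862) to -0.20 (adjusted p = 0.013). The replicate numbers of the control cells were taken to pair their libraries, a choice made from these same data. With the 6 control libraries fitted alone as pairs, also chosen after seeing the data, Cisplatin raised SLC2A1 by 0.39 ± 0.08 on the log2 scale (adjusted p = 0.00099). The result for this gene thus rests on how the libraries of replicate 2 are treated.

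HK2, a hexokinase that traps glucose in the cell as its phosphate (chr2:75061108-75120486), was a low-level transcript that rose on depletion. It stood at 1.69, 1.20 and 1.41 CPM in untreated control cells and at 3.57, 3.41 and 4.00 CPM in untreated depleted cells. With Cisplatin the control libraries held 2.60, 1.11 and 1.77 CPM and the depleted ones 4.17, 3.49 and 3.52 CPM. All depleted libraries were above all control libraries. The depletion effect was 1.19 ± 0.19 on the log2 scale, a 2.28-fold rise (adjusted p = 0.000225), and Cisplatin gave 0.18 ± 0.19 (adjusted p = 0.407). Between 22.2% and 66.7% of the reads over HK2 lay on the opposite strand (37 to 94 a library), against at most 0.446% for the other genes except CA9, and with both strands counted the rise was 0.77 (adjusted p = 0.00042). Without both control libraries of replicate 2 it was just under 2-fold, at 0.997 on the log2 scale, and 0.78 in treated cells (adjusted p = 0.0025).

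PFKFB3 and PFKFB4 make the sugar phosphate that switches on phosphofructokinase, and they moved apart. PFKFB3 (chr10:6186881-6277495) stood at 717, 335 and 641 CPM in untreated control cells, 388, 258 and 396 CPM in control cells with Cisplatin, 378, 392 and 284 CPM in untreated depleted cells and 219, 216 and 160 CPM in depleted cells with Cisplatin. The depleted, Cisplatin-treated libraries lay below all others, and among untreated cells the low control replicate 2 fell within the range of the depleted libraries. PFKFB3 fell with Cisplatin by 0.76 ± 0.17 on the log2 scale (adjusted p = 0.00155) and with depletion by 0.75 ± 0.17 (adjusted p = 0.00348). In untreated cells alone the depletion effect was -0.68 and missed the threshold (adjusted p = 0.0651), and without both control libraries of replicate 2 it was -0.95 (adjusted p = 2.4e-05).

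PFKFB4 (chr3:48555117-48599448) stood at 8.07, 11.7 and 7.82 CPM in untreated control cells and at 22.4, 16.3 and 28.6 CPM after Cisplatin. In depleted cells it stood at 7.99, 8.87 and 7.41 CPM untreated and at 20.3, 18.3 and 26.2 CPM after Cisplatin. Treated and untreated libraries did not overlap in either kind of cell. The Cisplatin effect was 1.35 ± 0.15 on the log2 scale, a 2.55-fold rise (adjusted p = 2.87e-06), with 2.44-fold in control cells and 2.66-fold in depleted cells, and a difference between the responses of 0.13 ± 0.30 (adjusted p = 0.857). The depletion effect was -0.12 ± 0.15 (adjusted p = 0.525).

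PGK1, which makes ATP in the later steps of glycolysis (chrX:77320685-77384793), stood at 1212, 1379 and 1121 CPM in untreated control cells, 876, 803 and 827 CPM in control cells with Cisplatin, 1107, 1034 and 1111 CPM in untreated depleted cells and 725, 736 and 740 CPM in depleted cells with Cisplatin. No treated library reached an untreated one. PGK1 fell with Cisplatin by 0.57 ± 0.06 on the log2 scale (adjusted p = 1.41e-06), by nearly the same size in control (-0.57 ± 0.08) and depleted cells (-0.56 ± 0.08), and with depletion by 0.19 ± 0.06 (adjusted p = 0.0165). In treated cells alone the depletion effect was -0.19 (adjusted p = 0.0805), and without both control libraries of replicate 2 it was -0.22 (adjusted p = 0.012).

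LDHA, the lactate dehydrogenase subunit that favors lactate (chr11:18415935-18429972), was the gene whose response to Cisplatin differed between the cells in the edgeR test of all libraries. Untreated control cells held 3743, 3677 and 3409 CPM and untreated depleted cells 4745, 4269 and 4569 CPM. Only uniquely mapped reads were counted, and LDHA and PGK1 have processed pseudogenes with which reads could be shared. After Cisplatin, control cells held 2304, 2267 and 2158 CPM and depleted cells 1971, 1966 and 1742 CPM. The depleted libraries were thus all above the control libraries without Cisplatin and all below them with it. Cisplatin lowered LDHA 1.61-fold in control cells (log2 -0.69 ± 0.08, adjusted p = 1.54e-05) and 2.39-fold in depleted cells (-1.26 ± 0.08, adjusted p = 9.68e-08), and the difference, tested as the interaction, was -0.57 ± 0.11 (adjusted p = 0.0195). Over both kinds of cell the Cisplatin effect was -0.97 ± 0.10 (adjusted p = 1.16e-06), just under 2-fold, and it passed 2-fold with DESeq2 (-1.002), without any of 5 single control libraries, and without both of replicate 2 (-1.03). Depletion gave 0.33 ± 0.08 in untreated cells (adjusted p = 0.00977) and -0.24 ± 0.08 in treated cells (adjusted p = 0.0261). The effect in treated cells missed the threshold without treated depleted replicate 3 (-0.19, adjusted p = 0.098). With edgeR, LDHA was the only 1 of the 10 genes with an interaction at an adjusted p under 0.05 (against 4.25% of all genes). Of the 10, 0 also reached 2-fold (against 1.28%). DESeq2 gave 0 at 2-fold as well, but with it EGLN3 also had an adjusted p under 0.05 (0.02). Leaving out 1 library at a time brought the adjusted p of the LDHA interaction (edgeR) to 0.052 without untreated control replicate 3, 0.066 without untreated depleted replicate 1 and 0.052 without untreated depleted replicate 3.

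CA9, a carbonic anhydrase of the cell surface and a widely used marker of HIF activity (chr9:35673853-35681156), was scarce and fell in the depleted cells. It stood at 1.93, 11.2 and 1.94 CPM in untreated control cells, 1.47, 2.14 and 0.979 CPM in control cells with Cisplatin, 0.529, 0.656 and 0.615 CPM in untreated depleted cells and 0.0323, 0.185 and 0.225 CPM in depleted cells with Cisplatin, the last from 1, 6 and 6 reads. Every depleted library was below every control library. The depletion effect was -3.16 ± 0.50 on the log2 scale, 8.94-fold lower (adjusted p = 0.000245), and without both control libraries of replicate 2 it was -2.14 ± 0.29 (adjusted p = 4.5e-05). The Cisplatin effect was -1.80 ± 0.48 (adjusted p = 0.00481), and it rested in part on untreated control replicate 2, without which it was -0.92 (adjusted p = 0.033) and, in control cells, -0.34 (adjusted p = 0.4). In control cells the treated and untreated libraries overlapped, and the change there (-1.71 ± 0.61, adjusted p = 0.0297) also missed the threshold without Cisplatin-treated replicate 1 (adjusted p = 0.076) or 3 (adjusted p = 0.11). Without both control libraries of replicate 2 it was -0.67 (adjusted p = 0.048), under 2-fold.

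VEGFA, the growth factor that drives new blood vessels (chr6:43737921-43754224), varied least. It stood at 43.4, 40.0 and 41.7 CPM in untreated control cells, 50.2, 54.4 and 52.2 CPM in control cells with Cisplatin, 53.0, 50.1 and 50.3 CPM in untreated depleted cells and 56.8, 55.2 and 51.5 CPM in depleted cells with Cisplatin. The untreated control libraries lay below all others, and the other conditions overlapped. Cisplatin raised VEGFA by 0.33 ± 0.07 on the log2 scale in control cells (adjusted p = 0.00159) against 0.09 ± 0.07 in depleted cells (adjusted p = 0.273), and the difference between these responses did not pass the test (-0.23 ± 0.10, adjusted p = 0.186). Over both treatments the depletion effect was 0.18 ± 0.06 (adjusted p = 0.0275), and it missed the threshold when any of 9 single libraries was left out (adjusted p up to 0.11).

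NDRG1, a stress-induced gene linked to differentiation (chr8:134249414-134314265), stood at 111, 60.1 and 81.0 CPM in untreated control cells, 71.1, 47.9 and 60.6 CPM in control cells with Cisplatin, 69.7, 72.6 and 69.2 CPM in untreated depleted cells and 64.1, 59.3 and 66.9 CPM in depleted cells with Cisplatin. The control libraries were spread far more widely than the depleted ones. The Cisplatin effect was -0.32 ± 0.14 on the log2 scale (adjusted p = 0.0485), just under the threshold, and it missed it when any of 8 single libraries was left out. The depletion effect was -0.09 ± 0.14 (adjusted p = 0.623), and without both control libraries of replicate 2 it was -0.26 ± 0.10 (adjusted p = 0.04), with -0.45 in untreated cells (adjusted p = 0.0031).

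EGLN3, a prolyl hydroxylase that is itself induced by HIF (chr14:34393437-34931980), stood at 15.1, 13.7 and 13.6 CPM in untreated control cells and 8.68, 6.59 and 7.64 CPM after Cisplatin. In depleted cells it stood at 14.2, 15.5 and 14.6 CPM untreated and 11.5, 11.7 and 12.5 CPM after Cisplatin. Untreated cells of both kinds overlapped, whereas with Cisplatin every depleted library was above every control library. Cisplatin lowered EGLN3 by 0.89 ± 0.11 on the log2 scale in control cells (adjusted p = 2.58e-05) and by 0.31 ± 0.11 in depleted cells (adjusted p = 0.025). The difference of 0.58 ± 0.15 missed the threshold with edgeR (adjusted p = 0.0569) and passed it with DESeq2 (adjusted p = 0.02) and without both control libraries of replicate 2 (0.50, adjusted p = 0.026). Over both treatments the depletion effect was 0.35 ± 0.11 (adjusted p = 0.0217), and it missed the threshold when any of 4 single libraries was left out (adjusted p up to 0.063). The fall with Cisplatin in depleted cells missed it without untreated depleted replicate 2 (adjusted p = 0.081) or 3 (adjusted p = 0.05). It also missed it without treated depleted replicate 1 (adjusted p = 0.053) and with library size in place of TMM (adjusted p = 0.08).

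**Figure D2:**
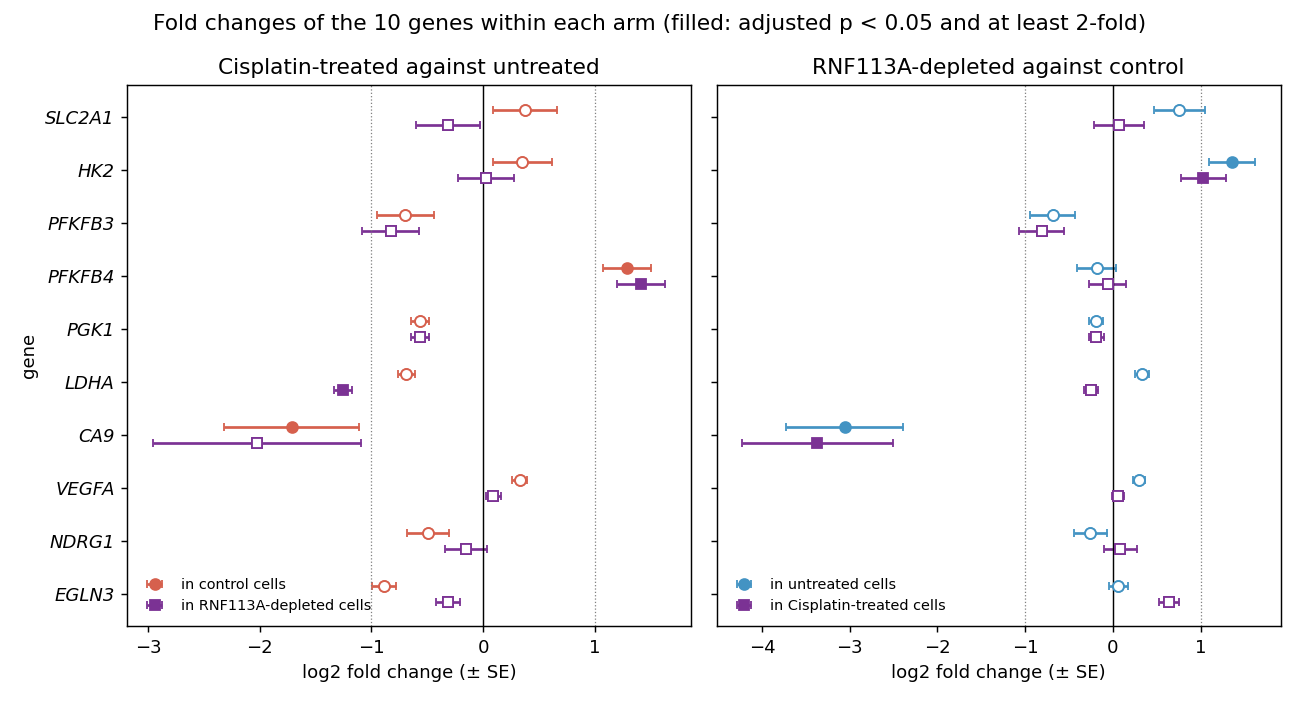
Log2 fold changes (± SE, edgeR) of the 10 genes for Cisplatin within control and depleted cells (left) and for depletion within untreated and treated cells (right), with filled symbols for an adjusted p under 0.05 and at least 2-fold, and dotted lines at 2-fold. The responses of LDHA to Cisplatin (-0.69 and -1.26) and of EGLN3 (-0.89 and -0.31) lay farthest apart in units of their errors, and CA9 had the widest errors.

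Within each kind of cell or treatment, 2 of the 10 genes were called at least 2-fold changed. For Cisplatin in control cells these were PFKFB4 and CA9 (against 19.8% of all genes), and 8 of 10 had an adjusted p under 0.05 (against 55.0%). For Cisplatin in depleted cells they were PFKFB4 and LDHA (against 23.1%), and 5 of 10 had an adjusted p under 0.05 (against 60.2%). In that comparison CA9 gave -2.02 ± 0.93 (adjusted p = 0.0785), and without both control libraries of replicate 2 it gave -2.03 ± 0.43 (adjusted p = 0.00052). No control library enters this contrast, and the smaller error reflects the spread, which was estimated over all libraries of the fit. For depletion they were HK2 and CA9 both in untreated cells (against 8.66%) and in Cisplatin-treated cells (against 12.3%), with 4 of 10 and 5 of 10 at an adjusted p under 0.05 (against 27.4% and 42.9%). With 1 library left out at a time, the counts at an adjusted p under 0.05 ran from 6 to 8 for Cisplatin in control cells. For Cisplatin in depleted cells they ran from 3 to 6, and for depletion from 4 to 6 untreated and from 3 to 6 with Cisplatin. The comparisons share conditions, so their counts are not independent.

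Levels were compared between the genes as exonic read pairs per kb of exon, scaled to the exonic total of the library (FPKM). In untreated control cells LDHA was highest at 1041 ± 70 (SD), followed by PGK1 (250 ± 36), PFKFB3 (111 ± 37), SLC2A1 (27.5 ± 10.2), NDRG1 (17.7 ± 4.8), VEGFA (10.5 ± 0.095), CA9 (3.02 ± 3.31), EGLN3 (2.70 ± 0.12), PFKFB4 (2.08 ± 0.59) and HK2 (0.232 ± 0.029). The libraries of SLC2A1 and NDRG1 overlapped, as did those of CA9 and EGLN3 and of EGLN3 and PFKFB4, and these neighbours were not separated beyond their spread. LDHA and PGK1 kept the first places in all conditions. HK2 was the lowest of the 10 in control cells, and CA9 in depleted cells, where it reached 0.362 ± 0.033 without and 0.0969 ± 0.0662 with Cisplatin. PFKFB4 stood above EGLN3 in every library of both Cisplatin-treated conditions and below it in every untreated depleted library, while in untreated control cells they overlapped.

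**Figure D3:**
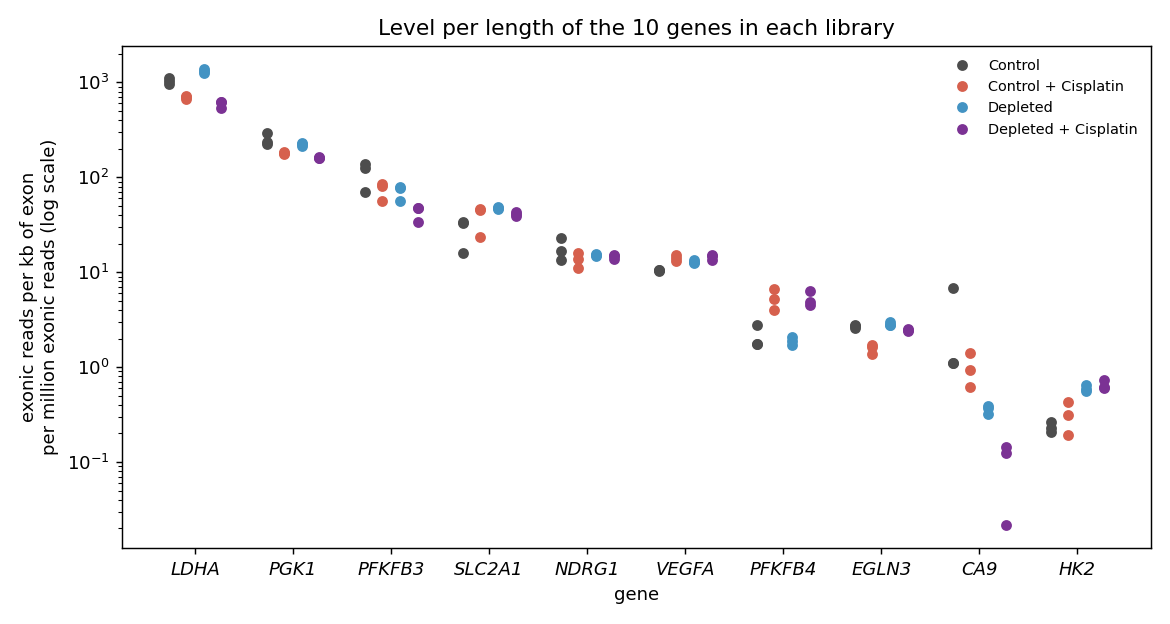
Exonic read pairs per kb of exon, scaled to the exonic total of the library (FPKM, log axis), of the 10 genes in each of the 12 libraries, ordered by their mean over all libraries and colored by condition. The genes ran from LDHA, above 540 in every library, down to HK2 and CA9, below 1 in every depleted library.

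The regulators of the pathway were examined whatever their values. HIF1A, the oxygen-sensitive subunit of HIF, fell with Cisplatin by 0.49 ± 0.13 on the log2 scale (adjusted p = 0.00553) and with depletion by 0.46 ± 0.13 (adjusted p = 0.0133), and it was high in control replicate 2 (758 CPM against 442 and 481 CPM untreated). Without both control libraries of replicate 2 HIF1A gave -0.47 for Cisplatin (adjusted p = 7.7e-06) and -0.21 for depletion (adjusted p = 0.0099). EPAS1, the other main alpha subunit, fell with Cisplatin by 0.67 ± 0.09 (adjusted p = 1.6e-05). VHL, which marks the alpha subunits for destruction, rose with Cisplatin by 0.52 ± 0.05 (adjusted p = 1.27e-06), and EGLN1, the main prolyl hydroxylase, fell by 0.25 ± 0.08 (adjusted p = 0.013). ARNT, their common partner, gave 0.01 ± 0.06 for either factor. PKM, the pyruvate kinase gene of most tumor cells, fell with Cisplatin by 0.46 ± 0.07 (adjusted p = 7.62e-05). For EPAS1, VHL, EGLN1, ARNT and PKM the depletion effect did not pass the test.

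Of 67 further genes of glycolysis, glucose transport, oxygen sensing and the hypoxia response, 63 passed the filter. Cisplatin raised 5 and lowered 7 of them by at least 2-fold, and at an adjusted p under 0.05 alone 19 rose and 31 fell, with a median log2 fold change of -0.22. Over all genes 21.5% were called for Cisplatin, 34.8% rose and 32.1% fell. Depletion raised 3 and lowered 4 by at least 2-fold, and 11 rose and 19 fell at an adjusted p under 0.05 alone, with a median of -0.05, where over all genes 11.0% were called, 23.5% rose and 24.0% fell. Among 14 other glycolytic enzymes, 8 fell and 3 rose with Cisplatin at an adjusted p under 0.05, with a median of -0.34 against 0.03 for all genes (32.1% of which fell and 34.8% rose), and none was called at 2-fold. On depletion 3 of these enzymes fell and none rose, against 24.0% and 23.5% of all genes.

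The called pathway genes with the largest changes differed between the factors. PGF, a VEGF relative that binds the same receptor family, went from 1.38, 3.21 and 1.38 CPM in untreated control cells to 48.3, 61.5 and 39.1 CPM after Cisplatin, and from 0.741, 1.13 and 0.861 CPM to 29.7, 27.7 and 33.6 CPM in depleted cells. Its Cisplatin effect was 4.81 ± 0.22 on the log2 scale (adjusted p = 6.06e-10). NRP1, a coreceptor of VEGF, fell with Cisplatin by 1.70 ± 0.13 (adjusted p = 1.08e-07), and NDRG4, a relative of NDRG1, rose by 1.66 ± 0.09 (adjusted p = 3.41e-09). On depletion CA12, another surface carbonic anhydrase, went from 1354, 1162 and 1156 CPM to 199, 211 and 190 CPM in untreated cells, and its depletion effect was -2.29 ± 0.11 (adjusted p = 1.39e-08). AK4, a mitochondrial adenylate kinase, fell by 1.41 ± 0.19 (adjusted p = 8.24e-05), and SLC16A3, a lactate exporter, rose by 1.32 ± 0.22 (adjusted p = 0.000334) while it fell with Cisplatin by 1.53 ± 0.22 (adjusted p = 3.21e-05). Both CA9 and CA12 were thus lower in depleted cells. Without both control libraries of replicate 2 the difference between the Cisplatin responses passed the test for SLC16A3 (-1.11, adjusted p = 0.0046) and NRP1 (-0.57, adjusted p = 0.016), which it did not with all libraries (adjusted p = 0.521 and 0.238).

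Intronic reads, which come from unspliced or incompletely spliced RNA, were counted in the genes as the reads within the gene minus those within its exons, and the ratio of intronic to exonic reads was tested. CA9 had no intronic read in any depleted library and was left out, so that 9 genes were tested. With Cisplatin in control cells the ratio rose in 1 of 9, PFKFB4 (against 17.5% of the 11488 genes tested). With Cisplatin in depleted cells it rose in 9 of 9 (against 64.6%). On depletion it rose in 2 of 9 untreated, VEGFA and EGLN3 (against 28.2%), and in 7 of 9 with Cisplatin, all but HK2 and PFKFB4 (against 81.5%). None fell in any of these comparisons. The same direction was seen over all genes, where intronic reads made up 4.28% to 4.75% of genic reads in untreated control libraries, 4.57% to 7.05% in treated control libraries, 5.66% to 6.52% in untreated depleted libraries and 9.76% to 10.1% in treated depleted libraries.

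The share of intronic reads in VEGFA was 9.47%, 7.23% and 9.54% in untreated control cells, 9.71%, 5.50% and 13.2% in control cells with Cisplatin, 11.9%, 16.1% and 12.7% in untreated depleted cells and 20.2%, 20.2% and 21.4% in depleted cells with Cisplatin. The treated depleted libraries were above all others, and on depletion in Cisplatin-treated cells the ratio rose 2.58-fold (adjusted p = 7.32e-05). In LDHA the share was 0.421% ± 0.035 (SD) in control cells left untreated and 0.414% ± 0.076 with Cisplatin, against 0.526% ± 0.062 and 0.799% ± 0.031 in RNF113A-depleted cells. NDRG1 and SLC2A1 showed the largest rises on depletion with Cisplatin, 2.64-fold and 2.63-fold. PFKFB4 had the largest share of intronic reads in every condition, 14.8% ± 3.0 in untreated and 23.1% ± 5.2 in treated control cells, and depletion changed its ratio little (1.12-fold with Cisplatin, adjusted p = 0.491). HK2 had 1 to 11 intronic reads a library, and its changes rest on those counts.

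**Figure D4:**
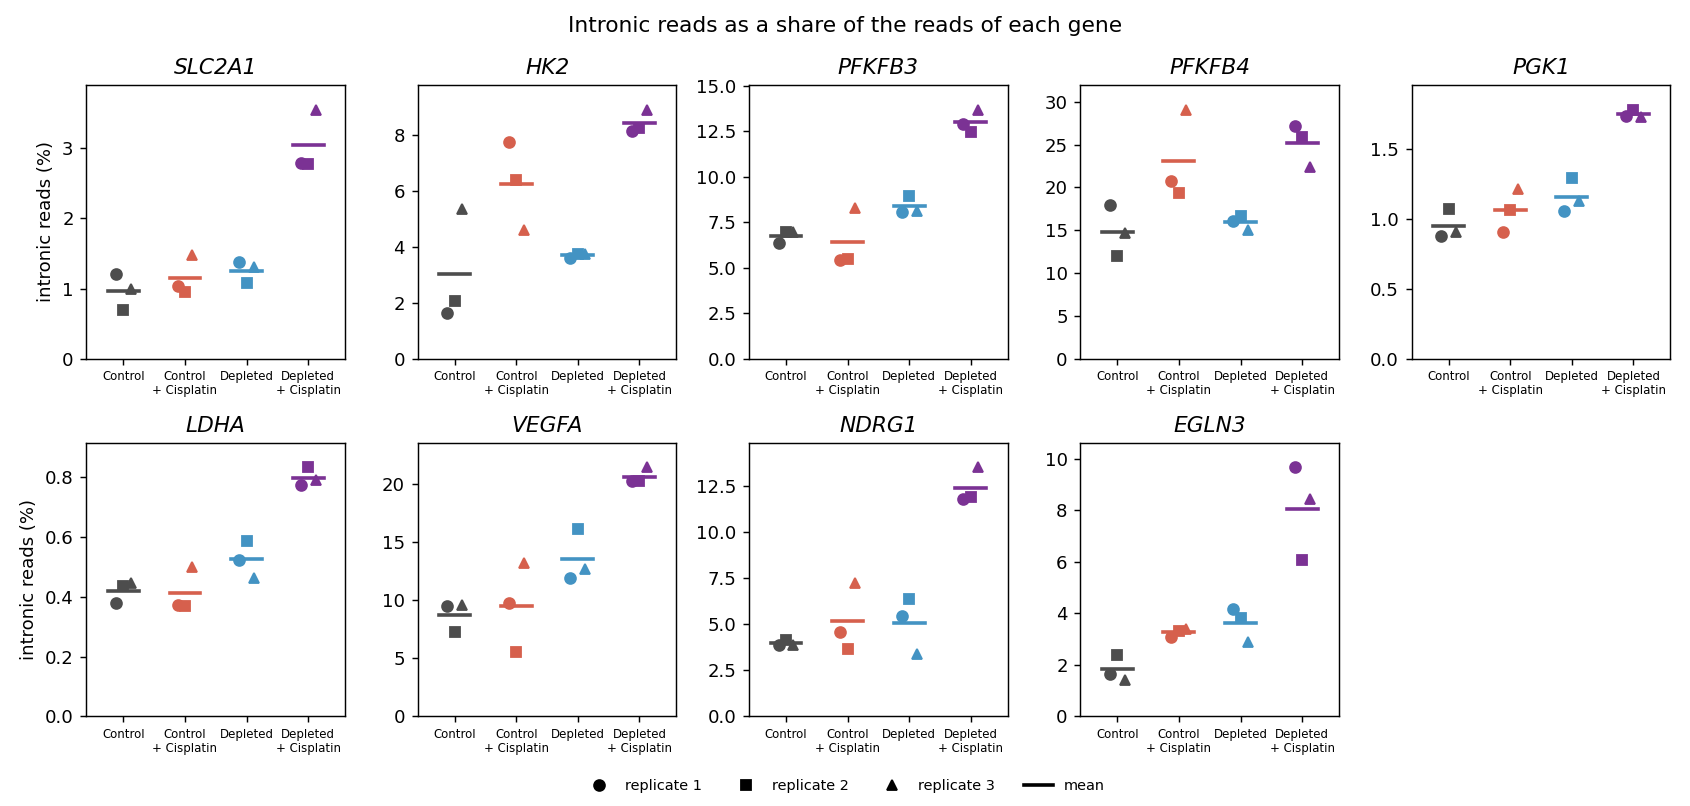
Intronic reads as a percentage of all reads of the gene (linear axes from 0) for the 9 genes tested, in each of the 12 libraries by condition, with symbols for the replicate number and lines for the condition mean. In 8 of the 9 genes every depleted, Cisplatin-treated library lay above all other libraries, as in 68.8% of the 11488 genes tested, and in PFKFB4 the treated control libraries overlapped with them.

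Single splicing events were taken from tables with inclusion and skipping reads in each library. The 5 categories and 4 comparisons held 262 tested event comparisons in 8 of the genes, from 3 in EGLN3 to 96 in LDHA, none of them a retained intron. With edgeR, 0 were called at an adjusted p under 0.05 and inclusion levels at least 0.2 apart (against 0.146% of 338867 tested in all). At an adjusted p under 0.05 alone 0 passed, against 5417 of the 338867. An unadjusted p under 0.05 was reached by 14, and the share of all events that reached it was not counted. The authors' own analysis with rMATS reported many more retained introns at the same cutoffs. For retained introns on depletion in Cisplatin-treated cells, edgeR called 84 of 3541. The 0 called here thus does not show that splicing of these genes was unchanged. In VEGFA, a skipped exon (hg19 chr6:43749693-43749824) was included at 51.4% ± 4.4 (SD) in control cells with Cisplatin and 41.3% ± 0.4 in depleted cells with Cisplatin, with an adjusted p of 0.709 (edgeR) from 140 to 338 reads a library. This exon was chosen after its values were seen.

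The pattern of PFKFB3 spanned the widest log2 range among the genes with at least 10 CPM (1.45 between condition means). Over the 12 libraries the genes most like it were ANAPC1 (Pearson r = 0.988 of log2 CPM), ENAH (r = 0.984) and TBC1D8 (r = 0.981), values that share the 4 conditions and the low control replicate 2.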

How the data were processed

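RNA from 12 A549 cultures (4 conditions, 3 libraries each) was sequenced by the authors as stranded paired-end mRNA libraries. The deposited counts per gene were made by the authors with STAR 2.5.2b against hg19, and counts of the gene strand (column 4) were used. Only uniquely mapped pairs are counted there, so reads shared with near-identical copies, such as the processed pseudogenes of LDHA and PGK1, are missing. Rows that name no gene took 14.0% to 22.6% of pairs and were left out. The deposited exonic and genic counts were made by the authors with HTSeq on Gencode release 19. Inclusion and skipping reads and form lengths in the deposited rMATS tables, in other units, were used without the authors' columns of comparisons.

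Counts were tested with edgeR 4.0.16 in R 4.3.3 (TMM, filterByExpr, quasi-likelihood test, Benjamini-Hochberg adjustment over 15352 genes), in an additive model of Cisplatin and depletion and in a model with 1 mean per condition. Genes past an adjusted p of 0.05 that changed at least 2-fold were called. CPM are normalized with TMM, SE are those of the log2 fold change, and likeness used log2 CPM with a prior count of 2. Intronic to exonic reads were tested with at least 1 read of each in every library, and splicing events with at least 10 reads. Scripts were tested on simulated data. Named besides the 10 genes were RNF113A, 6 regulators and, for each factor and the interaction, the 3 called pathway genes of at least 1 CPM with the largest change; no pathway gene was called for the interaction. The 10 genes and the lists were chosen with earlier results of these data known.

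Replicate numbers come from the labels. Deviations from the condition means of same-numbered untreated and treated control libraries correlated at 0.63, 0.73 and 0.48 over 9779 genes, and those of depleted libraries at 0.41, -0.065 and 0.30, so the numbers were taken to pair the control cells only. The labels do not state a pairing. Deviations within a condition cancel out, so these correlations are not independent of each other, and control replicate 2 stood apart in both treatments. Alternatives were unstranded counts, other scalings and filters, DESeq2 1.42.0, a replicate block and leaving out libraries.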

Additional observations from a re-analysis of the deposited data

Results flagged for a closer look

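The response of LDHA to Cisplatin differed between RNF113A-depleted and control cells in a test of the difference itself, an interaction of -0.57 ± 0.11 on the log2 scale (edgeR, adjusted p = 0.0195), with all 3 treated libraries below all 3 untreated ones in both kinds of cell. Its adjusted p was 0.052 without untreated control replicate 3 or untreated depleted replicate 3, and 0.066 without untreated depleted replicate 1. Of the 63 other pathway genes tested, CA12 and DDIT4 also passed the interaction test, which 4.25% of all genes passed. DDIT4, a stress-induced inhibitor of mTORC1 named here after its values were seen, differed in the direction of LDHA, at -0.76 ± 0.16 (adjusted p = 0.0243), and Cisplatin lowered it 1.42-fold in control cells and 2.41-fold in depleted cells. CA12 differed in the opposite direction, at 0.64 ± 0.11 (adjusted p = 0.0134): Cisplatin lowered it 2.19-fold in control cells and 1.41-fold in depleted cells.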

How the results depend on the processing

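The number of the 10 genes called fell from 2 to 1 for both factors and for 3 of the 4 within-arm comparisons (the exception being Cisplatin in depleted cells) when at least 10 counts were required in every library, which removes CA9. It fell to 1 for depletion in the additive model, in untreated and in Cisplatin-treated cells with unstranded counts, where HK2 was no longer 2-fold, and to 1 for depletion in treated cells with DESeq2 size factors and with DESeq2 itself. Without both control libraries of replicate 2 it was 1 for depletion, for Cisplatin in control cells and for depletion in treated cells, and 3 for Cisplatin in the additive model (LDHA added, -1.03) and in depleted cells (CA9 added). For Cisplatin in the additive model it was also 3 with DESeq2 and with DESeq2 size factors (LDHA, -1.002), and for Cisplatin in depleted cells with DESeq2 (CA9). Leaving out 1 library at a time gave 2 to 3 for Cisplatin in the additive model and in depleted cells, 1 to 2 for Cisplatin in control cells and for depletion in treated cells, and 2 for the depletion effect and in untreated cells. The depletion effect on SLC2A1 in treated cells turned from 0.07 to -0.20 (adjusted p = 0.013) without both control libraries of replicate 2, and ran from -0.24 to 0.18 with 1 library left out. The settings without both of these libraries were chosen after seeing the data. With the replicate block, 3 were called for Cisplatin in depleted cells (CA9 added, log2 fold change -2.15) and 2 in each other comparison but the interaction, with 0, and SLC2A1 gave 0.84 for depletion in untreated cells (adjusted p = 0.023). The block changed no other call among the 10 genes. It gave control and depleted libraries of the same number a shared term, although the numbers were taken to pair the control cells only. Deviations of same-numbered control and depleted libraries correlated at 0.020, 0.0086 and 0.14 untreated and at -0.20, 0.090 and -0.019 with Cisplatin. The count of genes with a higher intronic ratio on depletion in Cisplatin-treated cells was 6 to 8, and that of splicing events 0 under every alternative run. No paired analysis was possible for splicing events because their tables do not name the libraries. At 1 to 6 reads a library, the level of CA9 in treated depleted cells is limited by depth.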
